A study of Arabidopsis thaliana with 9 samples.

Results

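Wild type Arabidopsis thaliana (Columbia ecotype) seedling cultures were profiled in a somatic embryogenesis experiment, and the transcript profile of those cultures is described here. It rests on the 3 wild type arrays of 9 in the series, chosen by their labels, and on all 22746 probe sets that are not Affymetrix controls. Seeds germinated and grew on a shaker in liquid MS medium that held 2% sucrose, 10 mM MES and 4.5 µM 2,4-D, a synthetic auxin, with 23 h of light and 1 h of dark per day. Tissue was collected on day 10, and 4 µg of total RNA per sample was labelled. The other 6 arrays, of plants that overexpress the MADS-domain gene AGL15 and of an agl15 agl18 double mutant, were not used, and no genotypes are compared. Wild type carries none of these alleles, and every culture in the series received 2,4-D, so no culture without the auxin was available to set these levels against.

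In this system a small share of the seedling tissue, at the shoot apex, switches from organ formation to embryo formation when auxin is kept in the medium. The labels name the tissue a shoot apex somatic embryo culture, and they mention no removal of roots, cotyledons or leaves. Transcription factors such as BABY BOOM (BBM), auxin response genes, and later the storage protein, oil body and late embryogenesis abundant (LEA) genes of the maturation programme are the usual signs of the switch. In bulk RNA a dim gene may be expressed weakly in all cells or strongly in a few, and fewer cells of a type cannot be told apart from less RNA per cell.

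Values are linear array intensities, scaled on each array to a trimmed mean of about 500. The trimmed means of the 3 arrays were 500.04 to 500.043 and the medians 188 to 199. The 27 probe sets for Bacillus transcripts, which plant RNA should not contain, gave each array a background level, taken as the brightest of them. It was 18.0, 21.0 and 13.7 on replicates 1, 2 and 3. Log2 intensities of any pair of arrays correlated at 0.960 to 0.964 over all probe sets. A probe set's intensity depends on how well its probes bind as well as on transcript abundance, so neighbours in the ranking are not ordered by transcript level. Among 106 genes with several probe sets above background on all arrays, the brightest was a median of 2.67 times the dimmest, for 63 genes (59.4%) it was over 2 times, and for 6 it was over 10 times. The labels call the arrays biological replicates without saying whether the cultures were separate, and values are given as mean ± SD with n = 3.

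Most of the probe sets on the array gave signal in these cultures. In all, 17709 probe sets (77.9%) lay above background on all 3 arrays, 2321 (10.2%) on 1 or 2 of them, and 2716 (11.9%) on none. The mean intensity over arrays ran from 0.0833 to 19306 with a median of 198. A mean of 1000 was passed by 3578 probe sets and a mean of 10000 by 124. The signal was spread widely, since the 10 brightest probe sets held 1.17% of the summed intensity, the 100 brightest 8.99% and the 1000 brightest 41.6%. Spiked bacterial bioB transcripts, the dimmest hybridisation controls, read 76.7 to 235, and 10076 probe sets (44.3%) were brighter than every bioB control on every array. Spiked phage cre transcripts, the brightest, read 3551 to 7723, and 204 probe sets were above all of them on all arrays.

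Annotated pseudogenes supplied an internal contrast. Of 923 pseudogene probe sets, 119 (12.9%) were above background on all 3 arrays and 552 (59.8%) on none, with a median mean intensity of 8.06. Of 12443 probe sets for protein-coding genes, 9694 (77.9%) were above it on all arrays and 1434 (11.5%) on none, with a median of 183. The brightest pseudogene probe set averaged 1260, so the annotation alone did not mark a probe set as dark.

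**Figure D1:**
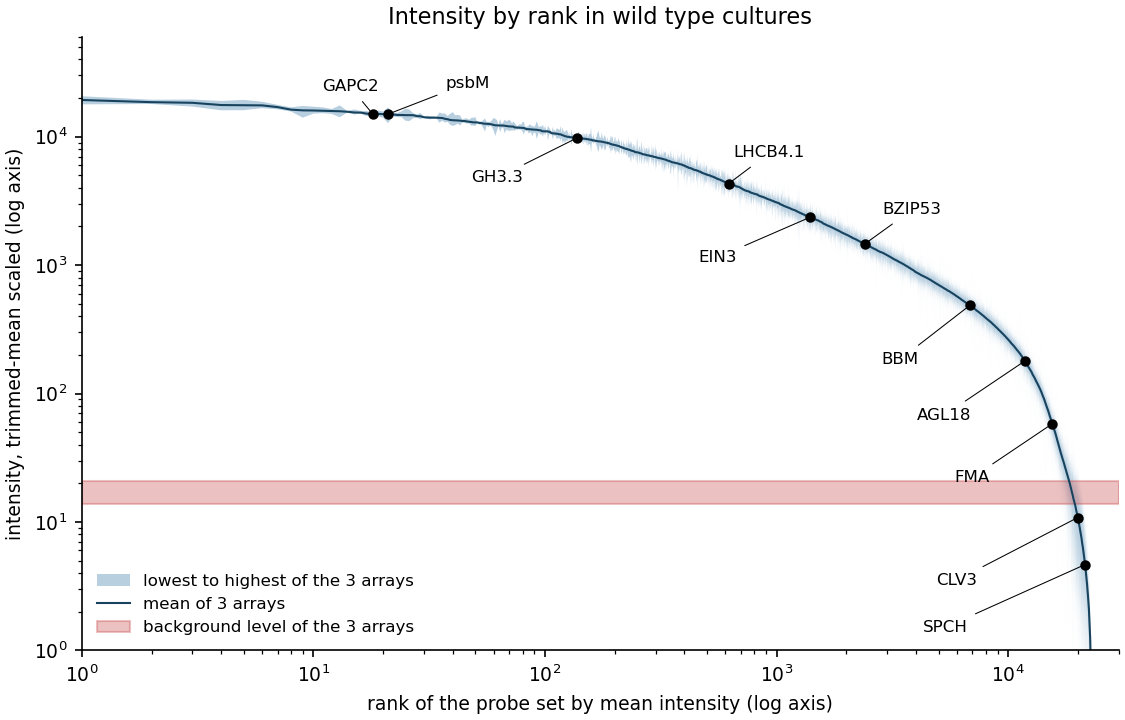
Mean intensity of each of the 22746 probe sets (vertical axis, log scale) against its rank (horizontal axis, log scale), with the lowest-to-highest range of the 3 wild type arrays shaded and the range of their background levels (13.7 to 21.0) as a red band. GAPC2 and psbM sit at 15066 and 14979, the embryo regulators BZIP53, BBM and AGL18 between 1459 and 179, and CLV3 and SPCH below the band.

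The brightest named genes served glycolysis, auxin conjugation, metal binding, small secreted proteins and the plastid. Of the 100 brightest probe sets, 45 had no gene in the annotation, 38 had a locus code only, 11 matched several genes and 6 had a gene symbol, so a catalogue of the top of the ranking by function cannot be complete. GAPC2, a cytosolic glyceraldehyde-3-phosphate dehydrogenase of glycolysis, was the brightest named gene at rank 18, with 14671, 15101 and 15426. TPI, triosephosphate isomerase of the same pathway, read 10030, 12040 and 11981 (rank 88). For GAPC2 the 3 arrays lay within 1.05-fold of each other. Between them in the ranking came psbM, a small photosystem II subunit encoded in the plastid (14979 ± 2100), LCR69, a secreted defensin also named PDF2.2 (12211 ± 638), and MT1C, a metallothionein (11993 ± 770). PRXR1, a peroxidase, followed TPI at 11228 ± 761 (rank 95).

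Among the measured genes of the hormone lists, 2 genes of auxin conjugation were the brightest. Most genes on those lists had no probe set with a symbol, so their levels are unknown here. WES1, also named GH3.5, joins auxin to amino acids and so takes it out of action, and it read 10605, 10462 and 9921 (rank 118). GH3.3, an enzyme of the same family, read 10051, 9653 and 9724 (rank 138). Both varied less than most genes, with a highest-to-lowest ratio of 1.07 for WES1 and 1.04 for GH3.3, against a median of 1.31 over all probe sets above background.

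The rest of the 30 brightest named genes held growth, stress and housekeeping functions. TUA6, an alpha-tubulin, averaged 9541 ± 885, cICDH, the cytosolic isocitrate dehydrogenase, 9354 ± 171, and CYTC-1, cytochrome c of the respiratory chain, 9007 ± 1193. Stress-linked genes were nearly as bright as these, COR47, a dehydrin known for induction by cold and drought, at 9063 ± 472, and DI21, a drought-induced gene, at 8578 ± 542. PYK10, a beta-glucosidase of the endoplasmic reticulum bodies of roots, averaged 9028 ± 1106. UBC28, a ubiquitin-conjugating enzyme, followed at 8671 ± 435 and scpl48, a serine carboxypeptidase-like protein, at 8133 ± 584. EXPA4, an expansin that loosens cell walls, averaged 7348 ± 439 and SAMDC, S-adenosylmethionine decarboxylase of polyamine synthesis, 7295 ± 1373. PGY1, a protein of the large ribosomal subunit, was at 7237 ± 721. The remaining nuclear genes were DI19 (7160), the phosphomannomutase PMM (7050), the glutaredoxin GRXC2 (6972), the aspartic protease APA1 (6924), TBL36 (6788), PR-1-LIKE (6647) and the temperature-induced lipocalin TIL (6540). The plastid genes petB, atpB, psaJ and atpE were the other 4, at 6316 to 8095. The last of the 30 averaged 6316 and the next named gene, the jacalin-related lectin gene JAL33, 6290.

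Measured genes of auxin response were mostly bright, while the 3 measured genes of auxin synthesis were near background. All 14 measured members, of 55 in the auxin signalling and response list, were above background on every array, as were 83.9% of all probe sets with a gene symbol, from which list members were drawn. They had a median mean intensity of 1002, at percentile 84.3 of all ranked probe sets. Below the conjugases WES1 and GH3.3 came GH3.17 (3201, 2866 and 2407) and GH3.1 (1868, 1145 and 1035), of the same family. HAT2, an auxin-induced homeodomain-leucine zipper gene, averaged 1743 ± 356, and the lateral organ boundaries domain genes LBD16 and LBD29, which act in lateral root initiation, 1114 ± 117 and 748 ± 40.5. Of the 7 Aux/IAA repressors measured with a symbol, IAA30 was the brightest, with 1185, 1151 and 1844. IAA29, IAA33, IAA20 and IAA18 averaged 889, 700.5, 636 and 405. The lowest members were IAA31 at 51.8 ± 10.4 and IAA34 at 40.2 ± 5.65, still above background on all arrays. YUC2, YUC4 and YUC6 encode flavin monooxygenases of auxin synthesis. They were the measured members of a list of 14 for auxin synthesis and transport, and of the 3 only YUC2 was above background on all arrays, with 47.6, 55.9 and 37.8. YUC4 read 17.7, 11.7 and 46.1, with replicate 3 alone above background, and YUC6 9.02, 26.6 and 17.8.

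**Figure D2:**
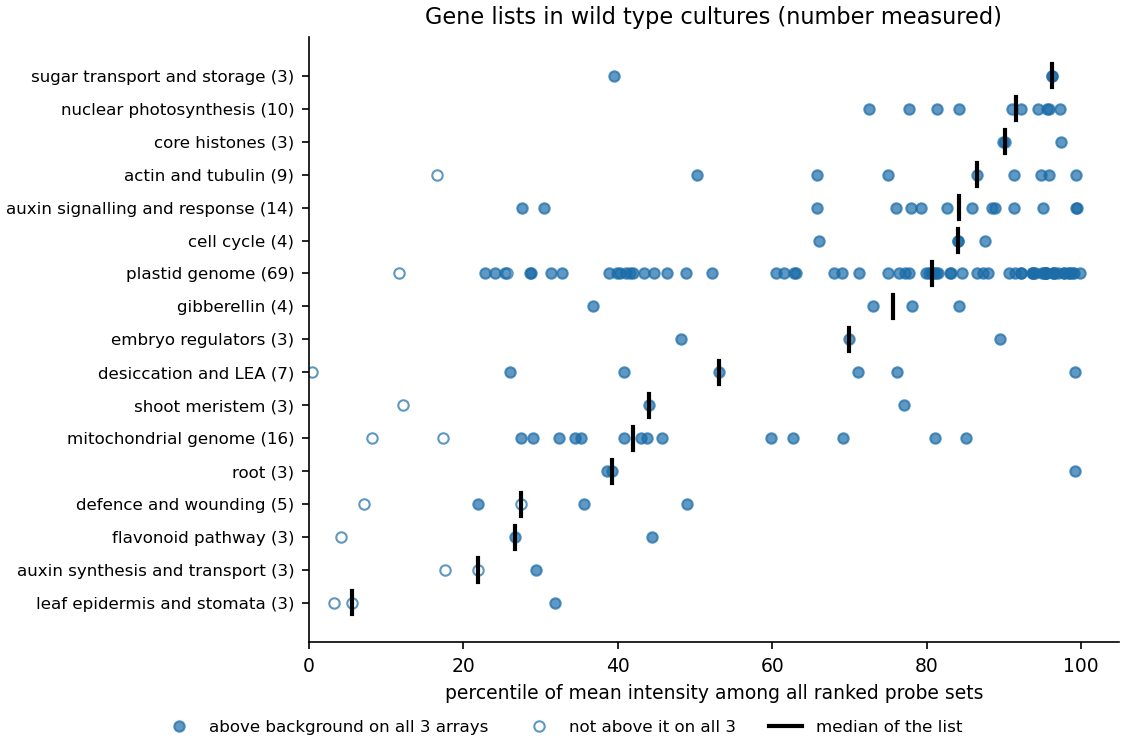
Percentile of mean intensity among the 22746 ranked probe sets (horizontal axis) for the measured members of each gene list with at least 3 of them, with filled points for members above background on all 3 wild type arrays, open points for the others, and black bars for medians. Nuclear photosynthesis (median 91.6) and auxin response (84.3) lie to the right, and auxin synthesis (21.9) and stomata (5.61) to the left.

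Signalling genes of other hormones differed in level. EIN3, the ethylene-response transcription factor, read 2510, 2144 and 2400. The gibberellin receptors GID1A and GID1B averaged 997 ± 127 and 556 ± 91.8, while the other receptor, GID1C, stayed at 87.6 ± 7.95. SLY1, the F-box protein through which these receptors act, averaged 707 ± 32.6. In contrast, the 6 measured response regulators, of a family that carries the cytokinin response, were at the floor of the array. Of these, RR16 alone was above background on all arrays, as were 83.9% of all probe sets with a gene symbol. It read 21.6, 27.4 and 30.7, and ARR15 23.9, 3.31 and 9.49. These 2 were the measured members of a cytokinin list of 9, so the level of the cytokinin response as a whole was not measured.

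The 3 measured embryo regulators were present at medium intensities. BBM, an AP2-type factor that can induce embryos when overexpressed, read 542, 389 and 526. BZIP53, a leucine zipper factor that acts on seed maturation genes, was brighter, with 1304, 1428 and 1645. AGL18, the MADS-domain relative of AGL15 that the double mutant of the series lacks, read 171, 177 and 189, at percentile 48.2. All 3 genes were above background on every array, as were 83.9% of all probe sets with a gene symbol. The 3 were the measured members of a list of 23. AGL15 itself was not analysed here because no probe set was assigned to it in the annotation used.

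The few measured genes of the maturation programme showed no uniform level. Of 21 listed seed storage and oil body genes, 2 were measured with a symbol. OLEO3, an oil body protein, averaged 317 ± 116, and PAP85, a vicilin-type storage protein, 50.7 ± 15.2. Counting members with a locus code only lowered the list's median percentile from 45.2 to 30.9. Of 15 genes in the desiccation and LEA list, 7 were measured. Above background on all arrays were 6 of the 7, near the 83.9% of all probe sets with a gene symbol. The 6 spanned COR47 at 9063, LEA4-5 at 644 ± 525, AtLEA4-1 at 509 ± 369, M10 at 230 ± 76.8, COR15A at 116 ± 35.7 and COR15B at 34.8 ± 9.66. M17, the neighbour of M10 on chromosome 2 and also a LEA gene, was below background on all arrays, at 0.970 ± 0.862. Several of these SDs approach the mean itself, and the pattern behind them is described with the spread among arrays.

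Markers of differentiated tissue were uneven. Of 19 listed root genes, 3 were measured. PYK10 averaged 9028, and EXPA7 and EXPA18, expansins of root hair cells, 106 ± 32.0 and 101 ± 17.5. Of 10 listed genes of leaf epidermis and stomata, 3 were measured. FMA, which acts last in the stomatal lineage, read 58.8, 60.1 and 55.4. SPCH and MUTE, which act before it, were below background on all 3 arrays, at 4.66 ± 1.67 and 2.91 ± 1.74. CLV3, the peptide signal of shoot stem cells, was below background on all arrays, with 15.1, 13.3 and 4.03. ATC, a relative of the shoot identity gene TFL1, averaged 711 ± 111. PHV, a class III homeodomain-leucine zipper gene of the shoot apex and upper leaf side, averaged 672 ± 109, and LAS, a regulator of axillary meristems, 141 ± 42.6. Of the 3 measured shoot meristem markers, of 20 listed, the stem cell marker itself thus gave no signal above background. The pollen and tapetum genes MGH3 and ACT12 and the endosperm genes AGL62 and IKU2 were above background on 2, 1, 1 and 0 arrays.

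The measured nuclear photosynthesis genes were bright in all cultures. All 10 measured members, of 55 listed, were above background on all arrays, as were 83.9% of all probe sets with a gene symbol. They lay between LHCB4.1, a photosystem II antenna protein, at 4303 ± 617 and PRK, phosphoribulokinase of the Calvin cycle, at 542 ± 98.5. RCA, which activates Rubisco, averaged 3236 ± 482, PSAE-1, a photosystem I subunit, 3067 ± 631, and ATPC1, a subunit of the plastid ATP synthase, 2548 ± 622. The list median was 1817, at percentile 91.6. The Calvin cycle enzyme SBPASE (998 ± 142) and HPR, hydroxypyruvate reductase of photorespiration (690 ± 131), were in the lower part of the list.

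Measured genes of proliferation and housekeeping mostly lay well above the median of the ranking. They were 3 of 26 listed core histones, 4 of 35 cell cycle genes, 9 of 25 actins and tubulins, 2 of 19 reference genes and 1 of 18 translation factors. Histone H2B genes HTB4, HTB1 and HTB2 averaged 4531 ± 760, 1564 ± 105 and 1516 ± 309. The mitotic Aurora kinases AUR1 and AUR2 averaged 1260 ± 209 and 984 ± 136, and AUR3 408 ± 98.2. PRL, the MCM7 subunit of the replicative helicase, read 1249, 985 and 729. The beta-tubulins ran from TUB7 at 3209 ± 270 to TUB1 at 200.2 ± 43.8, with TUB9, TUB6 and TUB5 between them at 2718, 1752 and 1173. ACT11 averaged 405 ± 57.9, and ACT12, a reproductive actin, read 27.6, 19.1 and 1.79, above background on replicate 1 only. PEX4, a ubiquitin-conjugating enzyme also used as a reference gene, averaged 1586 ± 156, and the initiation factor gene EIF4A-2 4050 ± 1145.

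Sucrose handling was represented by 2 strongly expressed transporters among many weak ones. Among 15 SWEET sugar transporters, SAG29, also named SWEET15, averaged 3418 ± 628 and SWEET11 3400 ± 407. The next was SWEET1 at 404, and the family median was 71.4. All but 1 of the 15 were above background on all arrays, as were 83.9% of all probe sets with a gene symbol. None was below it on all 3. ATSPS4F, a sucrose phosphate synthase, averaged 108 ± 35.3.

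Few genes of defence, heat shock and flavonoid synthesis were measured, and none of them lay above the median of the ranking. They were 5 of 14 listed genes for defence and wounding, 1 of 16 for heat shock and 3 of 12 for flavonoids. WRKY53, a defence transcription factor, read 194, 187 and 178, at percentile 49.0 of the ranking. The defensin gene PDF1.2 read 82.0, 103 and 52.3 and the thionin gene THI2.1 20.5, 32.5 and 22.5, while THI2.2 was below background on every array. The small heat shock protein gene ATHSP22.0 averaged 54.6 ± 16.4. DFR, dihydroflavonol reductase, averaged 145 ± 17.3 and AT5MAT, an anthocyanin malonyltransferase, 36.8 ± 5.81. BAN, which acts in seed coat tannin synthesis, was below background on all arrays, with 1.85, 2.58 and 6.08. Outside these lists, defensin genes clustered on chromosome 2 had unequal intensities. LCR69 averaged 12211, LCR68 4659 and PDF2.1 161, and LCR72 was below background on all arrays.

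Families defined by a shared symbol, chosen after their values were seen, differed in how many members gave signal. The share above background on all arrays was 77.9% over all probe sets and 83.9% over those with a symbol. Of 13 ubiquitin-conjugating enzymes, 12 were above background on all arrays, with a median of 1263. All 8 autophagy genes with a symbol were above it with a median of 800.5, led by ATG8F at 3598. Apart from ATG3 these were all ATG8 genes, so other autophagy genes were not covered. Also above it were all 8 aldehyde dehydrogenases (median 1431), all 6 LSM RNA-binding proteins (median 1057) and all 6 RNA polymerase II subunits (median 1019). RALF-like signal peptides alkalinize the cell wall and act through receptor kinases. Among the 11 of their genes with a symbol, none lay between 594 and 20.9, and members without a symbol were not examined. RALFL34, RALFL22, RALFL33, RALFL24, RALFL32 and RALFL31 averaged 3339, 2801, 2180, 807, 782 and 594, and the brightest of the other 5, RALFL27, 20.9. CLE44 and CLE41, whose shared peptide TDIF keeps vascular stem cells from becoming xylem, averaged 1350 and 708, against 113 for CLE26 and 6.14 for CLE21.

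Cell wall families were led by a few members. Among 10 alpha-expansins, EXPA4 at 7348 was followed by EXPA9 at 990 and EXPA20 at 768, and the median was 182. GH9B13, an endoglucanase, averaged 4741 and GH9C2 2194 in a family of 15 with a median of 45.1. XTH19 and XTH18, which cut and rejoin xyloglucan, averaged 3770 and 1258 among 9, with XTH26 and XTH21 below background on all arrays. TBL36 at 6788 stood above TBL39 at 1505 and a median of 102 among 22 trichome birefringence-like genes.

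UDP-glycosyltransferases (34 of 47 above background on all arrays, median 72.9), serine carboxypeptidase-like genes (20 of 29, median 52.4) and cytochrome P450 genes (11 of 22, median 23.5) had members from well above background down to below it on all arrays. In each of these families the share above background was below the 77.9% over all probe sets. It was also below the 83.9% over those with a symbol, from which family members were drawn.

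**Figure D3:**
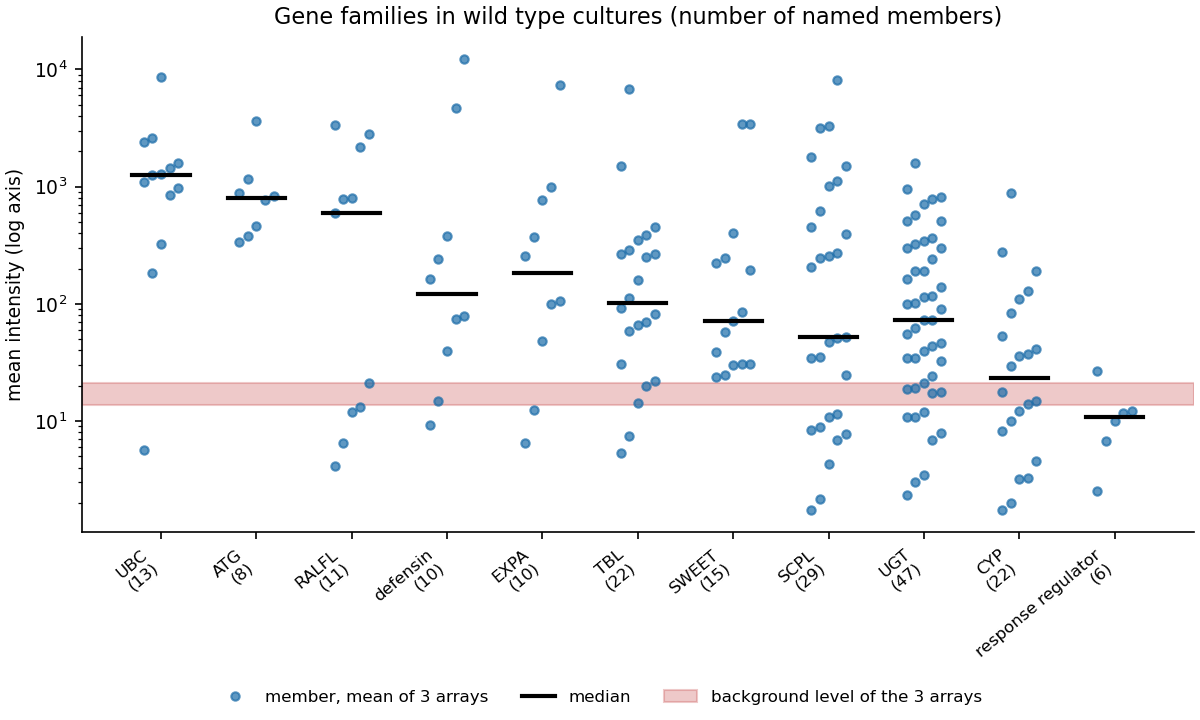
Mean intensity over the 3 wild type arrays (vertical axis, log scale) of each named member of 11 gene families (horizontal axis, number of members in brackets), with black bars for medians and the range of background levels in red. Ubiquitin-conjugating enzymes and ATG genes lie above the band except for 1 member. The named RALF-like genes leave a gap between RALFL31 and RALFL27, and the median response regulator lies below the band.

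Plastid-encoded genes were nearly all detected, at levels that differed widely between neighbours. Of 69 plastid genes, 67 (97.1%) were above background on all arrays, against 83.9% of all probe sets with a gene symbol. Their median was 804, and 29 passed 1000. The exceptions were ndhF (10.7, 1.38 and 18.9) and ndhG (46.0, 7.73 and 47.4), subunits of the plastid NDH complex. ATP synthase genes had a median of 2013, photosystem I genes 924, ribosomal protein genes 921, photosystem II genes 803, cytochrome b6f genes 141 and NDH genes 127. Adjacent genes, many of which are cotranscribed in plastids, read very differently. petB averaged 8095 and its neighbour petD 33.2, psbM 14979 and petN 55.4, and ndhC 3542 and ndhK 102. The Rubisco large subunit gene rbcL averaged 512 ± 61.6, and psbA, the photosystem II reaction centre gene, 1167 ± 234. As probe sets differ in binding, and plastid transcripts mostly lack the long poly(A) tails that standard labelling starts from, these values do not order the plastid transcripts by abundance.

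Probe sets of mitochondrial genes were dimmer. These values too depend on how well probes bind, so they do not order the transcripts of the organelles by abundance. Over 23 probe sets with mitochondrial gene symbols the median was 114. Of these, 19 (82.6%) were above background on all arrays, near the 83.9% of all probe sets with a gene symbol. ccb382, a cytochrome c maturation gene, averaged 1053 ± 257 and cox1, a cytochrome oxidase subunit, 817 ± 84.2. The 7 probe sets of nad1, a complex I subunit gene whose exons lie in separate parts of the mitochondrial genome, ran from 11.1 to 312.

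Agreement among the 3 cultures was close for bright genes and looser near background. Over the 17709 probe sets above background on all arrays, the SD of log2 intensity had a median of 0.20 and a 95th percentile of 0.52. The median was 0.32 where the mean was under 50 and 0.12 where it was 5000 or more. The highest array exceeded the lowest by over 2-fold for 912 probe sets (5.15%) and by over 4-fold for 45. Of probe sets with a mean of 200 to 1000, 2.43% passed 2-fold, and of those with a mean of 5000 or more, 1 of 511. Replicate 3 was the lowest array for 462 of the 912 and the highest for 285. Leaving out replicate 1, 2 or 3 left 512, 502 or 270 probe sets that differed by over 2-fold between the remaining arrays.

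LEA genes headed the named genes of largest spread. LEA4-5 read 495, 209 and 1228, an SD of 1.28 in log2, and AtLEA4-1 401, 206 and 920. LEA, a dehydrin, read 146, 61.0 and 288, and LEA18, another gene of the LEA4 group, 737, 452 and 1285. In each of these the order was replicate 3, then 1, then 2. ATOEP16-2, a plastid envelope protein known from seeds, had the same order with 66.3, 25.9 and 134, as did the oil body gene OLEO3 with 288, 218 and 444 and the defensin gene PDF2.1 with 128, 72.0 and 284. That order held for 10.5% of all 17709 probe sets above background and for 8 of the 20 named genes of largest spread. Among probe sets that varied over 2-fold, it held for 13.7% of all 912 and for 18 of the 62 with a symbol (29.0%). The 8 include genes just described. Replicate 3 exceeded replicate 2 by 5.88-fold for LEA4-5 and 4.46-fold for AtLEA4-1, and replicate 1 exceeded replicate 2 by 2.37-fold and 1.95-fold. Not all genes linked to maturation or dehydration took part. PAP85 (65.0, 52.5 and 34.7) and COR15B (32.0, 45.6 and 26.9) were lowest in replicate 3, and COR47 was nearly level with 8753, 9606 and 8830.

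**Figure D4:**
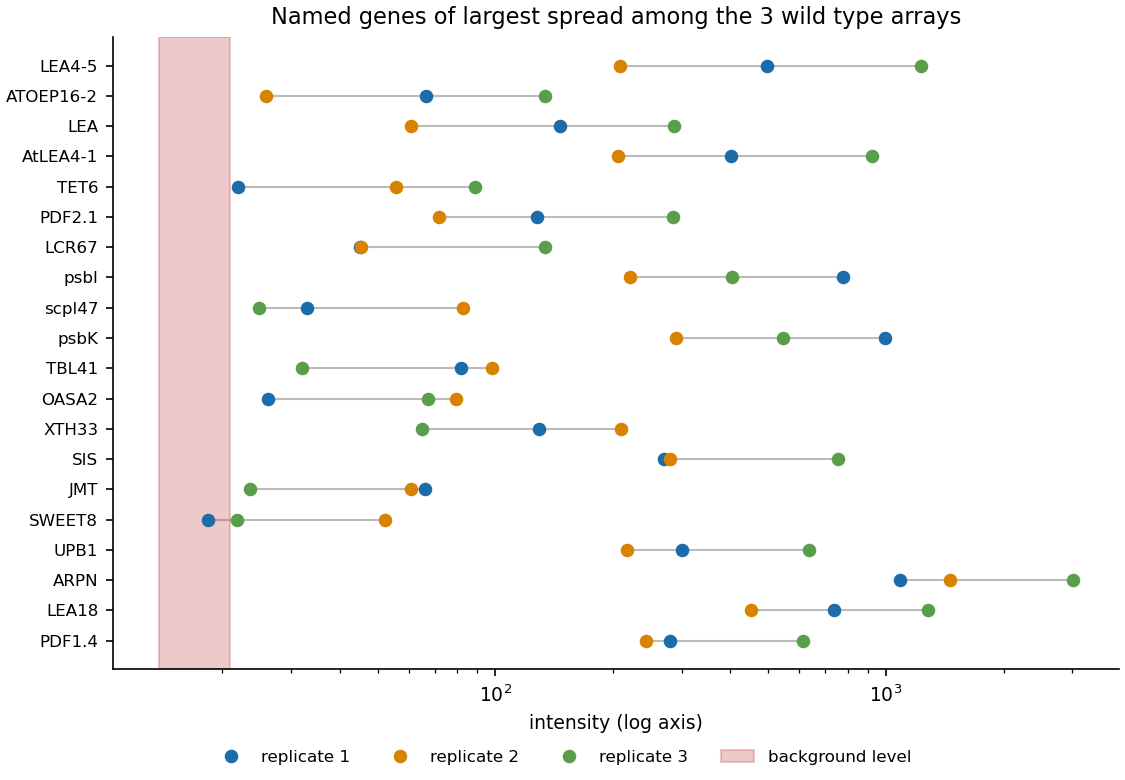
Intensity on each wild type array (horizontal axis, log scale, one colour per replicate) for the 20 named genes of largest SD of log2 intensity among probe sets above background on all arrays, ordered by that SD from the top, with the range of background levels in red. LEA4-5, ATOEP16-2, LEA, AtLEA4-1, PDF2.1 and LEA18 share the order replicate 3, 1, 2, whereas psbI and psbK are highest in replicate 1.

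Several other variable genes were high in replicate 3. ARPN, plantacyanin, a blue copper protein of the cell surface, read 1084, 1460 and 3013. SIS, a salt-induced serine-rich gene, read 270, 280 and 755, UPB1, a bHLH regulator of peroxidases in roots, 300, 218 and 636, and the defensin gene PDF1.4 280, 243 and 613. Replicate 3 was the highest array for 12 of the 20 genes, replicate 2 for 5 and replicate 1 for 3. It was also the highest for 32 of the 62 probe sets with a symbol that varied over 2-fold (51.6%). Over all 912 that varied over 2-fold, replicate 3 was the highest for 31.2% and the lowest for 50.7%, so variable probe sets as a whole did not lean to it. XTH33 (129, 210 and 65.0), TBL41 (81.7, 98.2 and 31.9) and JMT, a jasmonate methyltransferase (65.9, 60.9 and 23.5), were low in replicate 3. Of the 20, 8 averaged under 100, among them TET6, scpl47, OASA2 and SWEET8. The last of the 20 had an SD of 0.72 and the next named gene 0.70.

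Nuclear photosynthesis genes ran the other way. Replicate 2 was the highest array for 9 of the 10 and replicate 3 the lowest for 7, and LHCB4.2 shows it with 842, 1023 and 626. Over all probe sets above background, replicate 2 was the highest for 27.9% and replicate 3 the lowest for 44.3%. Relative to the mean of the 3 arrays, the list's median was 0.01 in replicate 1, 0.22 in replicate 2 and -0.22 in replicate 3, in log2 units. The corresponding medians of the desiccation and LEA list were -0.08, -0.32 and 0.49. These shifts describe 3 cultures and carry no test.

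Some technical readings were also highest in replicate 3. The ratio of 3′ to 5′ actin control probe sets was 1.40, 1.33 and 1.49 on replicates 1, 2 and 3, and that of GAPDH was 0.985, 1.02 and 1.04. Spiked cre controls reached 7285, 6569 and 7723, whereas bioB controls reached 235, 139 and 220 and so were highest in replicate 1. Replicate 3 was the highest array for 49.9% of 1928 probe sets of the shortest protein-coding genes, spanning up to 1496 bp, and for 16.1% of 1926 of the longest, from 3488 bp. The median log2 ratio of replicate 3 to replicate 1 was 0.19 for the shortest genes and -0.22 for the longest. The 9 LEA genes had a median span of 1136 bp, and the ratio of replicate 3 to replicate 1 was 2.48 for LEA4-5, 2.29 for AtLEA4-1, 1.97 for LEA and 1.74 for LEA18. The photosynthesis genes, with a median span of 1606 bp, were mostly lowest in replicate 3. All 6 LSM genes and 7 of 8 autophagy genes were highest in replicate 3, as were 33.6% of all probe sets above background. The 7 were all ATG8 genes. Both families were picked after their values were seen. In others, such as those with SEC and PRA1 symbols, replicate 3 was the highest for 0 of the 8 genes above background. The part of gene length, labelling or control signal in these orders was not tested.

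Some plastid genes that lie next to each other shared an order of arrays. psbK read 994, 290 and 545 and its neighbour psbI 776, 221 and 404. The 3 genes that follow, atpA, atpF and atpH of the plastid ATP synthase, also ran replicate 1, 3, 2, an order held by 14 of the 67 plastid genes above background (20.9%) and by 9.82% of all probe sets above background. The next gene, atpI, broke it with 22.9, 26.1 and 32.3. In a second stretch of 10 genes, psbJ to rpl20, replicate 1 was lowest for 9 and the order was 3, 2, 1 for 7. That order held for 28.4% of the plastid genes and 23.1% of all probe sets above background, and replicate 1 was lowest for 34.3% and 35.3%. rpl33, a ribosomal protein gene in the second stretch, read 1966, 2997 and 3847. Both stretches were picked after the values were seen, so their counts describe these genes and do not speak for the plastid genome. Besides psbK and psbI, rpoA, a subunit of the plastid-encoded RNA polymerase, was the other of the 67 genes that varied over 2-fold, with 2439, 4177 and 1995.

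**Figure D5:**
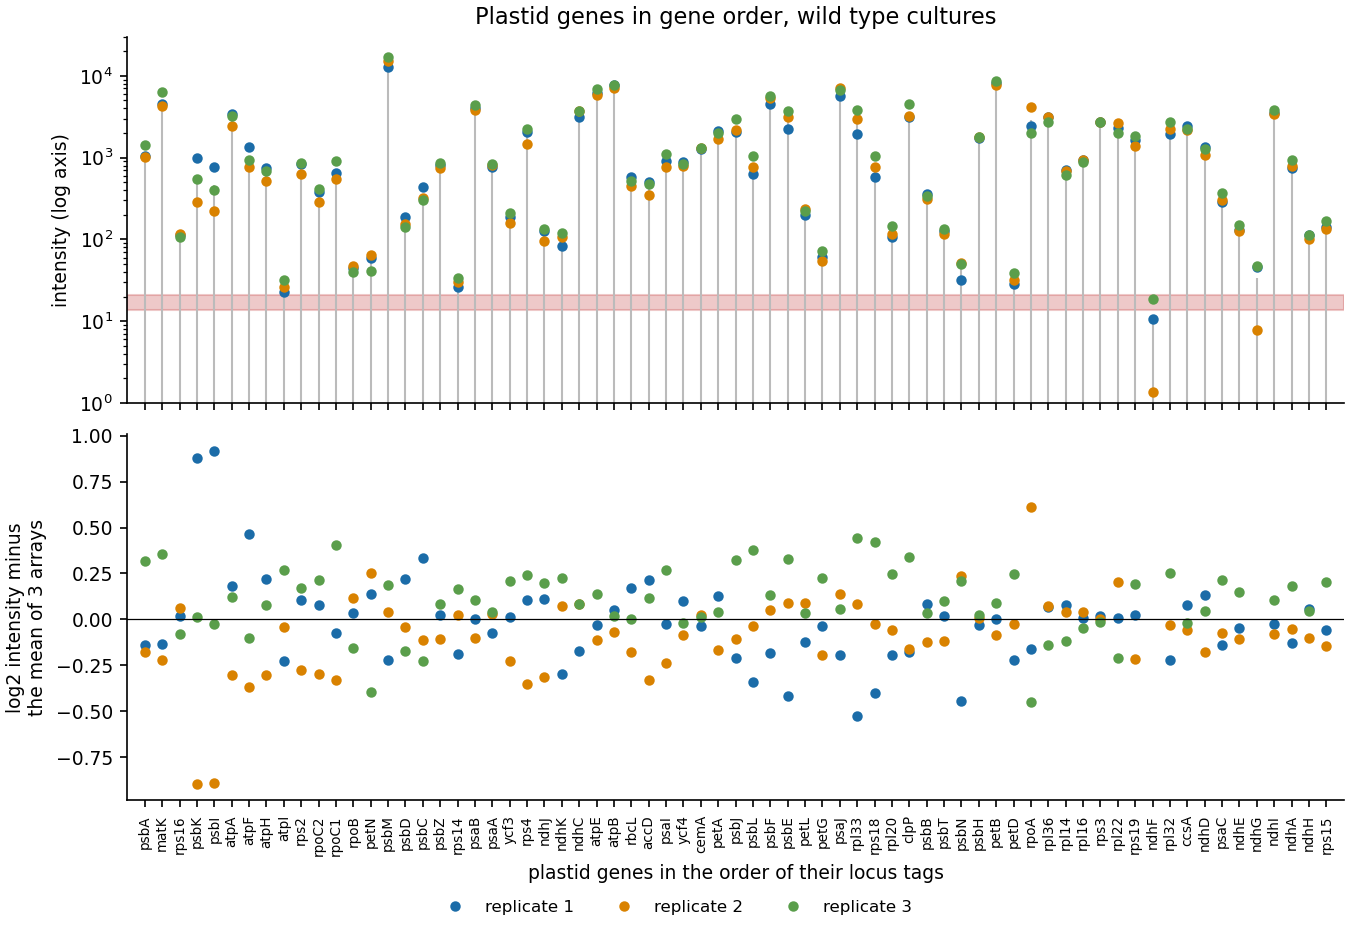
Upper panel, intensity (log scale) of the 69 plastid genes in the order of their locus tags, one colour per wild type replicate, with the range of background levels in red and grey stems up to the mean. Lower panel, log2 intensity of each array minus the mean of the 3 for the 67 genes above background on all arrays, where psbK and psbI stand out with replicate 1 high and replicate 2 low.

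At the stable end, 10 named genes had an SD of log2 intensity of 0.01 to 0.02. PUB49, a ubiquitin ligase, read 440, 443 and 437, and DER2.1, a derlin of the endoplasmic reticulum, 753, 757 and 745. MOL1, a receptor kinase that restrains cambium growth, averaged 608 ± 5.17, the plastid ribosomal protein gene rps3 2726 ± 30.2, and RTE1, a regulator of ethylene receptors, 1980 ± 28.9. ATRER1A (1602), NET1D (154), TUB9 (2718), DJ1D (1288) and the splicing gene PRP39-2 (62.7) completed the group. They ran from 62.7 to 2726 in intensity. As they were picked for the smallest SDs among 1325 probe sets with a symbol, they do not show how agreement depends on intensity.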

How the data were processed

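Total RNA of the cultures was labelled with biotin and hybridised to Affymetrix arrays, per the labels. The authors deposited 1 linear intensity per probe set and array, never negative and not logged. How probes were summarised and background-corrected, and with which software, is not given in the sources used here. With 2% of values trimmed at each end, the mean was about 500 on each array. No array was rescaled further.

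From the 3 wild type columns, means, SDs, ranks, log2 SDs and counts above background were computed with pandas 2.3.3 and numpy 2.4.6 in Python 3.11.15, checked on simulated data. No test was run, and the number of arrays limits the precision. Names came from the array annotation and a gene table of assembly TAIR10.1, which gave 1 gene to 13513 of 22746 probe sets, 1580 of them with a symbol. Of 553 entries in 30 gene lists, 95 were measured with a symbol, and 3 lists had none. A further 13 with a locus code only were left out. Named genes are the 30 brightest, the 20 of largest and 10 of smallest log2 SD, and each list's brightest and dimmest members. Other named genes were chosen after their values were seen. The lists and the choice of the wild type arrays were made with earlier results of these data known. The planned look at sequence features was not run, for want of sequences. A further gene family is not reported here.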

Additional observations from a re-analysis of the deposited data

How the results depend on the processing

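Quantile normalization and median centring changed no count by over 1.5 times, and 98 and 99 of the 100 brightest probe sets stayed among the 100 brightest. The counts above and below background, 17709 and 2716, could not change under either rescaling, as each keeps the order of values within an array. Ranking on the mean of log2 values kept 98 of the 100. Leaving out the probe sets that may match several genes kept 83. Such removal cannot reorder the others, so 83 is only the number of the 100 that are not of that kind. The count of probe sets varying over 2-fold, 912 as reported, was 4612 at 1.5-fold and 45 at 4-fold. It ran from 270 to 512 when an array was left out, 531 with the background level doubled, and 838 and 886 under quantile normalization and median centring. Doubling the background level, an alternative chosen after seeing the data, also raised the probe sets below it on all arrays to 4965 from 2716, by construction. Of the 20 named genes of largest spread, 18 were shared under quantile normalization, 20 under median centring and 14 with the background doubled. Without replicate 1, 2 or 3, 16, 13 or 9 of the 20 still differed over 2-fold between the remaining arrays. Of 216 medians of gene lists under the alternatives, 207 moved by no more than the SD over arrays. The 2 that moved by over 5 percentile points came from counting members with a locus code only, also chosen after seeing the data: reference genes at 84.4 and seed storage and oil body genes at 30.9. No paired analysis was possible because the result comes from no test and 1 genotype was used. Probe sets without a gene limit every statement about the top of the ranking.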

Other observations

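Some neighbouring genes had very different intensities, with the limit that their probe sets differ in binding. In 83 of 143 pairs of adjacent named genes both were above background on all arrays, and among these the brighter was a median of 4.05 times the dimmer and over 10 times in 17. MSRB5 and MSRB6, methionine sulfoxide reductases that repair oxidised proteins, had the highest ratio of the 83 pairs, at 2612 and 38.8. HMT-1, a homocysteine methyltransferase, averaged 3175 beside the signal peptide gene CLE27 at 79.8, and GAPC2 15066 beside the transcription factor gene GT-1 at 383. Among pairs of the same family, BGLU15 averaged 1192 and BGLU28 39.7, and the expansin-like genes EXLA1 1135 and EXLA3 69.8. The glutathione transferase gene GSTU20 averaged 3174, and its neighbour GSTU21 was above background on 1 array.

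Gene span and intensity were related over 12374 probe sets of nuclear protein-coding genes. In 5 bins of rising intensity the median span was 1439, 1994, 2450, 2518 and 2162 bp. The 194 such probe sets among the 500 brightest had a median span of 1654 bp, against 2125 bp over all.

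By chromosome, between 74.5% (chromosome 2) and 79.4% (chromosome 4) of protein-coding probe sets were above background on all arrays.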
